A study of Mus musculus with 16 samples.

Results

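Chemokines and chemokine receptors were described in epididymal white fat, the visceral fat pad along the epididymis, of male C57BL/6 mice. Members were all genes of the deposited mRNA table whose name begins with Ccl, Cxcl, Cx3cl, Xcl, Ccr, Cxcr, Cx3cr or Xcr and a number. Of 27150 genes, 62 matched, 43 ligands (with pseudogenes and unplaced copies) and 19 receptors, under 58 names. The 41 with a group mean of 0.5 CPM (counts per 1000000 mRNA counts of a library) or more in at least 1 of 4 groups are described, 29 ligands and 12 receptors. The groups were a high-fat diet (HFD) with metformin, an antidiabetic biguanide, HFD with resveratrol, a plant polyphenol, HFD alone and a normal diet. Per the labels, mice were bought at 6 weeks of age, HFD was the feed D12492J with 60% fat, and it ran for 8 weeks before either drug was given for 6 weeks. The labels name no transgene or deletion, and the strain is C57BL/6 in all groups (C57BL/6J in the growth text).

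Chemokines are small secreted proteins that attract leukocytes along a gradient, and their receptors are G protein-coupled receptors on the leukocyte surface. The ligand families are named after the spacing of their first cysteines (CC, CXC, CX3C and XC). In obese fat, ligands of Ccr2 such as Ccl2 are known for drawing monocytes out of the blood into the tissue, where they become macrophages. Other members act in steady state, for example in placing lymphocytes in lymphoid tissue or holding cells in the bone marrow.

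The mRNA table held 16 libraries, 4 per group, with 13350585 to 20531032 counts each. Of the 16 count columns, 14 matched a sample title, and 2 carried codes found in no title, whose prefix gave the group alone. They were kept as replicates of that group, a choice made after the table was opened. These are called HFD unmatched and metformin unmatched, and the others by group and replicate number. The codes of HFD 1 to 3 share a stem that HFD unmatched does not have, while each other group spans more than 1 stem. What a stem stands for was not resolved here. Resveratrol 4 was left out of all group values and tests. It had 12130 CPM of Crisp1, a secreted protein of the epididymis, against 0 to 16.3 CPM in the other 15 libraries, and 800.1 summed CPM of adipocyte markers, against 13090 to 26900 CPM. Among those 15, the metformin libraries had 15.2 to 16.3 CPM of Crisp1 and the rest at most 0.178 CPM. The 62 members of resveratrol 4 summed to 253.1 CPM, against 691.3 to 1211 CPM in the others. In 5 further libraries, 3 of metformin (2, 4 and unmatched), resveratrol 2 and normal diet 2, genes of motile ciliated epithelium summed to 559.8 to 1536 CPM, against 52.8 to 121.6 CPM in the remaining 10. The sample titles name epididymal fat, while the protocol texts also speak of retina and skeletal muscle, whose markers summed to 2.05 to 8.98 and 30.4 to 135.4 CPM in these 15 libraries. Levels are CPM normalised with TMM (trimmed mean of M-values), and library values are listed in the order metformin 1, 2, 4 and unmatched, resveratrol 1 to 3, HFD 1, 2, 3 and unmatched, normal diet 1 to 4. Group values are mean ± SD over n = 4 libraries, or n = 3 with resveratrol. Differences were tested with edgeR's quasi-likelihood test over 17535 genes, with a Benjamini-Hochberg adjusted p under 0.05 as the threshold. The labels give each library a code without stating separate animals, so the spread behind the p-values is that between libraries and may be technical.

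The 62 members together made up 784.5 ± 97.7 CPM with metformin, 822.6 ± 50.6 CPM with resveratrol, 1078 ± 162 CPM on HFD and 876.3 ± 113 CPM on the normal diet (not normalised with TMM). Cxcl12, the ligand of Cxcr4 that retains stem and immune cells in their niches, held the largest mean share of the members' counts in 3 groups. Its share was 35.6 ± 4.93% with metformin, 41.2 ± 8.04% with resveratrol, 22.2 ± 11.6% on HFD and 38.7 ± 7.33% on the normal diet. On HFD the first place was held by Ccl9, with 23.1 ± 8.63% of the members' counts, against 10.1 ± 1.21% with metformin, 9.71 ± 0.462% with resveratrol and 12.3 ± 4.8% on the normal diet. On HFD both shares lay within each other's spread. Divided by the mean length of its transcripts, Ccl6 was first in all 4 groups, at 61.6 CPM per kb with metformin, 73.9 with resveratrol, 140.5 on HFD and 87.6 on the normal diet. Cxcl12, Ccl9 and Ccl11 took the next places in all 4 groups, in varying order. The highest receptor per kb was Ccr2, at 11.2, 10.5, 23.5 and 11.6 CPM per kb in the groups in that order.

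**Figure D1:**
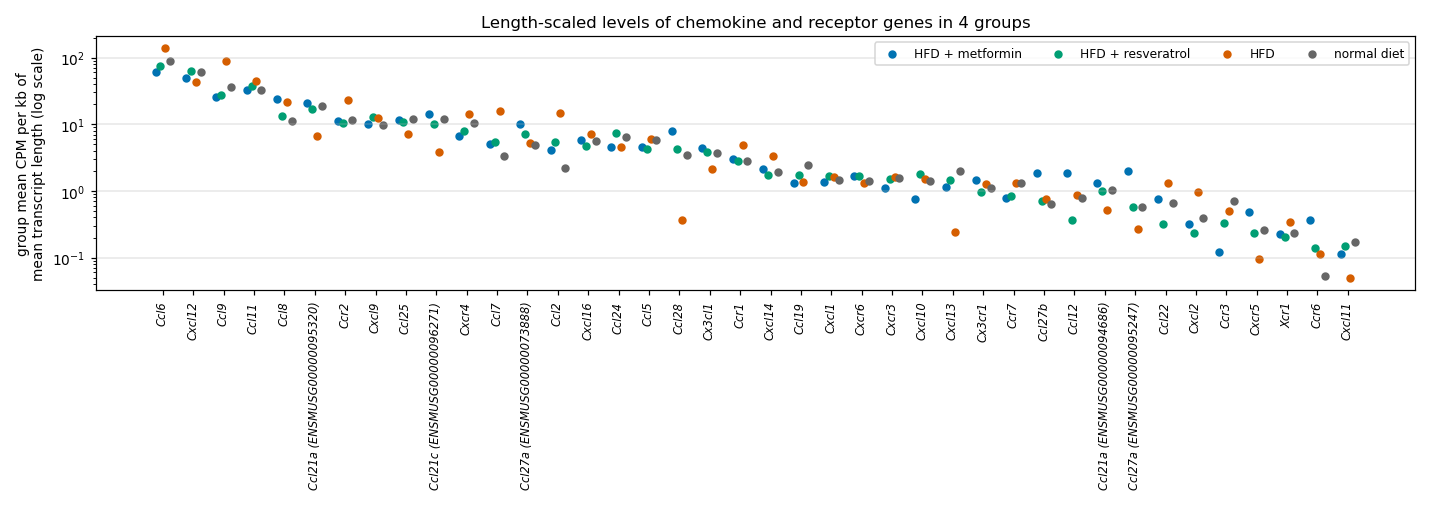
Group mean of 40 of the 41 described members, in CPM per kb of mean transcript length on a log axis, with a point for each of 4 groups (3 resveratrol and 4 other libraries per point), genes ordered by their mean over the groups. Ccl6, Cxcl12, Ccl9 and Ccl11 stand at the left in all groups, and the HFD points of Ccl2 and Ccl7 lie above those of the other 3 groups.

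Promoter windows from RefSeq (GRCm38.p6, 250 bases before to 50 after a start site, 35 windows for 28 of 39 described gene names) are shown for 4 members. Ccl9 and Ccr2 are shown because their transcripts were higher on HFD and lower with metformin, Ccl25 because it was the member with the opposite calls, and Cxcl10 because it held matches to both motifs searched and passed no test. Both strands were searched for the NF-kappa-B consensus, the site of a transcription factor of inflammation, and for GAAANNGAA, a core of the interferon-stimulated response element. Matches are in capitals, and overlapping matches run together.
Ccl9, chr11:83578587-83578886 (minus strand): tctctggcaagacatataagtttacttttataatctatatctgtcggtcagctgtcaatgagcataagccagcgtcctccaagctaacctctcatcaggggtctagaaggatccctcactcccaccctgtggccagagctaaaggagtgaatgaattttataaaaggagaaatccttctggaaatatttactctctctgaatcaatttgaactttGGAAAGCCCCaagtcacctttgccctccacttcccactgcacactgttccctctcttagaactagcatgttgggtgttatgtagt
Ccr2, chr9:124101933-124102232 (plus strand): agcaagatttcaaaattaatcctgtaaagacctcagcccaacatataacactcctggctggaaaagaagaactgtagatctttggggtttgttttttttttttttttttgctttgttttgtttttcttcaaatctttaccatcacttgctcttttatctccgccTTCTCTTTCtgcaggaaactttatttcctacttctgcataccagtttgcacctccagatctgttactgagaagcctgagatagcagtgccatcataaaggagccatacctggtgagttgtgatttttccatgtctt
Ccl25, first start, chr8:4324960-4325259 (plus strand): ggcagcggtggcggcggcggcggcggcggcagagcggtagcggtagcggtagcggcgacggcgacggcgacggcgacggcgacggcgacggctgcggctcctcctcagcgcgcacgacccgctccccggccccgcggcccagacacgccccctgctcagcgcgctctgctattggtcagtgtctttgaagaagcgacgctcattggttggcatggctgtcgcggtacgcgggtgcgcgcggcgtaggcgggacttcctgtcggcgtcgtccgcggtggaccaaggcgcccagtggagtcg
Ccl25, second start, chr8:4349338-4349637 (plus strand): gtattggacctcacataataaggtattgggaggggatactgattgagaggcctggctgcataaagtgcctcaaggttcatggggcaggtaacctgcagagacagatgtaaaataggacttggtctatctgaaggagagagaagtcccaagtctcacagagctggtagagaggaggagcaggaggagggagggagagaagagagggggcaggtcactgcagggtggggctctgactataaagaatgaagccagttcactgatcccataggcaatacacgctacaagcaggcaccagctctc
Cxcl10, chr5:92348840-92349139 (minus strand): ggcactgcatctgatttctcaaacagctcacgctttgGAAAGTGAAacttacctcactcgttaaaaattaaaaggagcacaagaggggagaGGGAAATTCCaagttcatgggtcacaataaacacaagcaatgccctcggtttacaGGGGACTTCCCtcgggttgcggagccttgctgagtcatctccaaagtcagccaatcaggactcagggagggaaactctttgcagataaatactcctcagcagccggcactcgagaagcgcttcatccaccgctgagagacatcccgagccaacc
The Ccl9 window held 1 NF-kappa-B match that begins 35 bases upstream of the start site on the minus strand of the window. The Ccr2 window held 1 GAAANNGAA match that begins 86 bases upstream, also on the minus strand. Neither Ccl25 window held a match to these letters. The Cxcl10 window held 4 NF-kappa-B matches, 3 of them overlapping each other, and 1 GAAANNGAA match 213 bases upstream. Among all 35 member windows, 8 held an NF-kappa-B match and 5 a GAAANNGAA match, against 8.46% and 8.56% of all 32851 promoter windows of the table. Of the called members, Ccl6, Cxcl13 and Cxcr4 have a window with no match. Ccl2 and Ccl7, also higher on HFD and lower with metformin, and Cxcl11 have no window and were not searched. A match is a run of letters and was not tied to any binding data.

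The monocyte attractants Ccl2 and Ccl7, both ligands of Ccr2, were higher on HFD than in every library of the other 3 groups. Ccl2 (chromosome 11, 82035571 to 82037453 in GRCm38, as for all gene positions here) had 5.36, 2.42, 1.98 and 4.10 CPM in the metformin libraries, 6.50, 2.75 and 4.59 CPM with resveratrol, 12.8, 11.4, 17.2 and 7.84 CPM on HFD and 1.23, 1.52, 3.00 and 1.70 CPM on the normal diet. The HFD libraries did not overlap those of any other group, and HFD unmatched was the lowest of them. HFD against normal diet gave 12.3 ± 3.88 against 1.86 ± 0.783 CPM, or 6.58-fold (log2 fold change 2.72, SE 0.41, adjusted p = 0.000945). With metformin Ccl2 fell to 3.46 ± 1.56 CPM, against 12.3 ± 3.88 CPM on HFD (log2 fold change -1.83, SE 0.40, adjusted p = 0.0163). With resveratrol it had 4.62 ± 1.88 CPM and missed the threshold (log2 fold change -1.42, SE 0.43, adjusted p = 0.0781). Ccl7 (chromosome 11, 82045712 to 82047525), the next gene on the chromosome, had 4.19, 3.17, 4.36 and 4.54 CPM with metformin, 5.31, 3.58 and 4.21 CPM with resveratrol, 12.1, 14.3, 17.7 and 7.30 CPM on HFD and 1.85, 2.93, 2.95 and 3.05 CPM on the normal diet. Again no HFD library overlapped another group. Ccl7 rose on HFD to 12.8 ± 4.36 CPM, against 2.69 ± 0.568 CPM on the normal diet (4.75-fold, log2 fold change 2.25, SE 0.27, adjusted p = 0.000411). It fell with metformin (4.06 ± 0.614 CPM, log2 fold change -1.65, SE 0.26, adjusted p = 0.012) and with resveratrol (4.37 ± 0.877 CPM, log2 fold change -1.56, SE 0.29, adjusted p = 0.036). In bulk tissue, fewer cells of a type and less RNA per cell cannot be told apart. In group means, most macrophage markers changed in the same directions as these genes. Their 14 symbols (15 identifiers), none of them at 0 in all libraries, summed to 1362 to 1858 CPM with metformin, 1710 to 1761 with resveratrol, 1989 to 4310 on HFD and 1682 to 2547 on the normal diet. The lowest HFD sum, 1989 CPM in HFD unmatched, lay below normal diet 3 (2547 CPM) and 4 (2169 CPM). Ccl2 and Ccl7 of that HFD library stayed above all libraries of the other groups. Of the 15 identifiers, 9 were higher on HFD, 12 lower with metformin and 6 lower with resveratrol, and none passed the test in the opposite direction. On HFD 12 of the 15 had a positive log2 fold change. Cd163, Mertk and Cd14 had negative ones (-0.74, -0.34 and -0.39) that did not pass. Markers of lipid-associated macrophages (12 genes, none at 0 in all libraries) summed to 6372 to 11330 CPM with metformin, 8771 to 11060 with resveratrol, 11370 to 18040 on HFD and 7925 to 10880 on the normal diet, and 9 were higher on HFD, 8 lower with metformin and 7 lower with resveratrol. Most of this sum was Lpl, a lipase that fat cells also express, which passed no test (8076 ± 2273 CPM with metformin, 8727 ± 1658 with resveratrol, 10490 ± 1346 on HFD and 7770 ± 1358 on the normal diet). Trem2, a receptor of these macrophages, had 9.19 ± 3.55 CPM with metformin, 7.73 ± 3.27 with resveratrol, 113.4 ± 67.1 on HFD and 12.03 ± 13.9 on the normal diet, and passed the test in all 3 comparisons. With all 16 libraries the first list had 2 higher on HFD, 1 lower with metformin and 3 lower with resveratrol, and the other list 7, 5 and 6. Both lists had 0 genes lower with metformin under the ciliated covariate or without the ciliated-rich libraries, and 0 lower with resveratrol when HFD 1, 2 or 3 or any resveratrol library was left out. Their part in the chemokine values was not tested.

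Ccl9 and Ccl6, neighbouring genes of chromosome 11 whose mouse products bind Ccr1, were among the highest ligands per kb and differed between groups. Ccl9 (chromosome 11, 83572919 to 83578636), whose promoter window is printed above, had 98.9, 52.0, 68.0 and 92.7 CPM with metformin, 74.9, 73.4 and 95.8 CPM with resveratrol, 287, 348, 358 and 89.8 CPM on HFD and 71.8, 66.1, 184 and 113 CPM on the normal diet. HFD 1 to 3 stood above every other library, while HFD unmatched lay inside the range of the other groups. Ccl9 rose on HFD to 271 ± 125 CPM, against 109 ± 54.5 CPM on the normal diet (log2 fold change 1.31, SE 0.41, adjusted p = 0.0348). It fell with metformin to 77.9 ± 21.8 CPM, against 271 ± 125 CPM on HFD (log2 fold change -1.79, SE 0.42, adjusted p = 0.0198), and had 81.4 ± 12.6 CPM with resveratrol (log2 fold change -1.73, SE 0.46, adjusted p = 0.0528). Ccl6 (chromosome 11, 83587882 to 83593087) had 116, 53.1, 70.7 and 107 CPM with metformin, 92.3, 93.4 and 126 CPM with resveratrol, 201, 243, 238 and 109.6 CPM on HFD and 102, 77.2, 173 and 142 CPM on the normal diet. HFD 1 to 3 were again the highest, and HFD unmatched overlapped the other groups. Ccl6 passed the test for metformin against HFD, at 86.8 ± 29.9 CPM, against 198 ± 61.7 CPM on HFD (log2 fold change -1.19, SE 0.31, adjusted p = 0.0315). HFD against normal diet gave 198 ± 61.7 against 123 ± 42.4 CPM (log2 fold change 0.68, SE 0.31, adjusted p = 0.129), and resveratrol against HFD gave an adjusted p of 0.136.

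The remaining inflammatory CC ligands did not pass a test in the main fit. Among them, Ccl8 was called higher on HFD than on the normal diet with the ciliated covariate. The eosinophil attractant Ccl11 (chromosome 11, 82057823 to 82062955), the eotaxin of fat and other tissues, had 66.6, 14.9, 26.9 and 33.3 CPM with metformin, 45.6, 23.2 and 52.7 CPM with resveratrol, 52.6, 47.8, 45.9 and 49.0 CPM on HFD and 41, 20.0, 33.01 and 45.3 CPM on the normal diet. The HFD libraries lay just above those of the normal diet (lowest 45.9 against highest 45.3 CPM) and overlapped both drug groups, with the lowest value of the metformin, resveratrol and normal diet groups each in a library rich in ciliated transcripts. Ccl11 had a log2 fold change of 0.49 for HFD against normal diet (SE 0.39, adjusted p = 0.376). Ccl24, a second eotaxin, averaged 5.70 ± 1.94 CPM with metformin, 9.37 ± 0.503 CPM with resveratrol, 5.79 ± 1.25 CPM on HFD and 8.02 ± 2.88 CPM on the normal diet. Ccl8, a further monocyte attractant, averaged 12.1 ± 7.37 CPM with metformin, 6.72 ± 7.52 CPM with resveratrol, 11.2 ± 1.56 CPM on HFD and 5.79 ± 3.27 CPM on the normal diet. Ccl5, a T cell and monocyte attractant, averaged 2.42 ± 1.01 CPM with metformin, 2.29 ± 0.543 CPM with resveratrol, 3.19 ± 1.17 CPM on HFD and 3.10 ± 1.42 CPM on the normal diet. Ccl22, a product of dendritic cells and macrophages that binds Ccr4, averaged 1.66 ± 0.891 CPM with metformin, 0.701 ± 0.466 CPM with resveratrol, 2.92 ± 0.947 CPM on HFD and 1.42 ± 1.02 CPM on the normal diet. Ccl12, a mouse ligand of Ccr2, averaged 0.986 ± 0.337 CPM with metformin, 0.195 ± 0.0780 CPM with resveratrol, 0.451 ± 0.276 CPM on HFD and 0.407 ± 0.408 CPM on the normal diet. Thus the 5 genes at 82035571 to 82116799 on chromosome 11, Ccl2, Ccl7, Ccl11, Ccl12 and Ccl8, held the 2 members with the largest positive log2 fold changes on HFD and 3 that passed no test in the main fit. The lowest adjusted p of these 6 ligands over the 3 comparisons with HFD was 0.073, for Ccl22 with resveratrol (log2 fold change -2.06, SE 0.61).

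**Figure D2:**
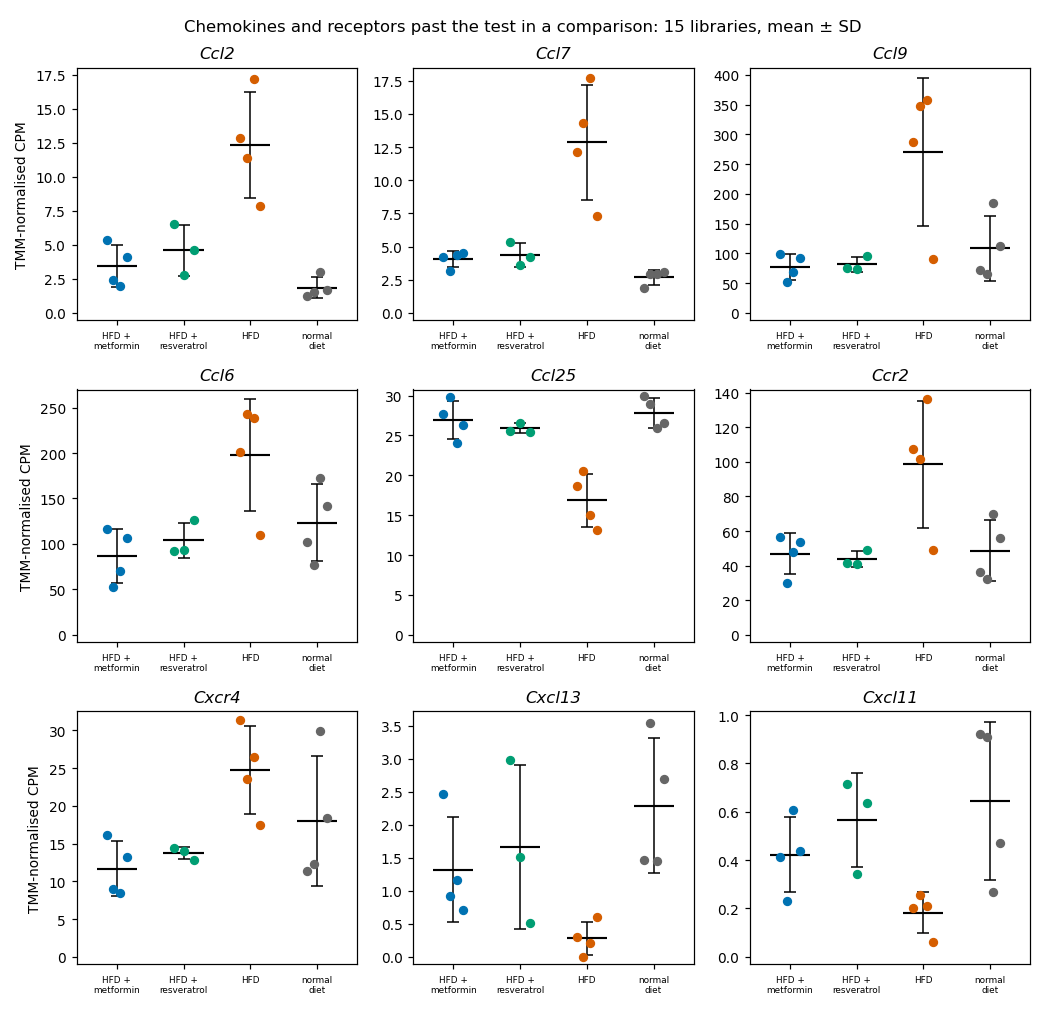
Level of 9 members that passed the test in at least 1 comparison, in TMM-normalised CPM on a linear axis, a point per library (n = 4, resveratrol n = 3) with the group mean as a bar and the SD as whiskers. For Ccl2 and Ccl7 every HFD library is above all others, for Ccl25 every HFD library is below all others, and for Ccl9, Ccl6, Ccr2 and Cxcr4 the lowest HFD library lies among the other groups.

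Ccl25, which attracts thymocytes and gut lymphocytes through Ccr9, moved the other way. Ccl25 (chromosome 8, 4325210 to 4360020) had 27.7, 29.8, 24.1 and 26.3 CPM with metformin, 25.6, 26.6 and 25.5 CPM with resveratrol, 18.7, 20.5, 15.03 and 13.2 CPM on HFD and 29.9, 28.9, 25.9 and 26.6 CPM on the normal diet. All 4 HFD libraries lay below all 11 others, and the other 3 groups overlapped. Ccl25 fell on HFD to 16.9 ± 3.36 CPM, against 27.8 ± 1.91 CPM on the normal diet (log2 fold change -0.72, SE 0.13, adjusted p = 0.00209). It was higher with metformin, at 26.9 ± 2.40 CPM, against 16.9 ± 3.36 CPM on HFD (log2 fold change 0.68, SE 0.13, adjusted p = 0.012), and with resveratrol, at 25.9 ± 0.634 CPM (log2 fold change 0.62, SE 0.13, adjusted p = 0.0365). Its receptor Ccr9 lay just under the level for description, at a highest group mean of 0.496 CPM. Its 10 transcripts were summed, so use of the start sites shown above was not resolved.

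The other homeostatic CC ligands passed no test in the main fit. Ccl19, a ligand of Ccr7 that guides T cells and dendritic cells in lymph nodes, averaged 0.923 ± 0.527 CPM with metformin, 1.23 ± 0.913 CPM with resveratrol, 0.944 ± 0.424 CPM on HFD and 1.69 ± 1.48 CPM on the normal diet. Ccl21, the second ligand of Ccr7, is carried by 6 near-identical identifiers on chromosome 4 and unplaced scaffolds, whose reads could be split between copies in counting, so single values are uncertain. Summed over the 6, Ccl21 had 2.34, 31.6, 20.8 and 33.6 CPM with metformin, 3.10, 40.0 and 6.89 CPM with resveratrol, 8.22, 1.95, 4.96 and 11.04 CPM on HFD and 3.92, 41.6, 29.2 and 2.23 CPM on the normal diet. The 5 libraries rich in ciliated transcripts and normal diet 3 had 20.8 to 41.6 CPM, and the other 9 had 1.95 to 11.04 CPM. The 3 described identifiers had means of 12.3 ± 7.82, 8.88 ± 10.99, 3.37 ± 2.14 and 10.5 ± 10.7 CPM for Ccl21c, 8.27 ± 5.72, 6.71 ± 7.88, 2.64 ± 1.48 and 7.502 ± 7.41 CPM for Ccl21a on a scaffold, and 1.13 ± 0.758, 0.862 ± 1.22, 0.447 ± 0.290 and 0.903 ± 0.888 CPM for Ccl21a on chromosome 4, each with metformin, with resveratrol, on HFD and on the normal diet. Their adjusted p-values were 0.278, 0.283 and 0.523 for HFD against normal diet. Ccl27, a skin-homing ligand of Ccr10, is likewise split over 3 identifiers. Its main identifier Ccl27a averaged 6.84 ± 4.82 CPM with metformin, 4.76 ± 0.675 CPM with resveratrol, 3.49 ± 0.700 CPM on HFD and 3.30 ± 0.371 CPM on the normal diet, and it had 4.05, 14.04, 5.01 and 4.26 CPM in the metformin libraries. Metformin 2, the highest, also had 2059 CPM of summed spermatogenic markers, against 0.493 to 41.4 CPM in the other 14 libraries, and their part in this value was not tested. The copies Ccl27b and Ccl27a on a scaffold had too few counts to be tested, at 0.798 ± 1.05 and 0.673 ± 0.833 CPM with metformin, 0.299 ± 0.0444 and 0.199 ± 0.188 CPM with resveratrol, 0.324 ± 0.107 and 0.0899 ± 0.0645 CPM on HFD, and 0.269 ± 0.126 and 0.198 ± 0.110 CPM on the normal diet.

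Ccl28, a mucosal ligand of Ccr3 and Ccr10 made by epithelia, differed widely between libraries of 1 group. Ccl28 (chromosome 13, 119623819 to 119654359) had 0.275, 42.6, 34.8 and 36.5 CPM with metformin, 0.179, 46.4 and 0.383 CPM with resveratrol, 0.863, 2.10, 1.57 and 0.905 CPM on HFD and 1.46, 44.3, 2.25 and 1.70 CPM on the normal diet. The 5 libraries rich in ciliated transcripts had 34.8 to 46.4 CPM and the other 10 had 0.179 to 2.25 CPM, with no overlap. The fitted log2 fold changes of 4.39 (SE 1.76, adjusted p = 0.0962) with metformin and 3.52 (SE 1.76, adjusted p = 0.257) with resveratrol did not pass. The membrane-bound chemokine Cx3cl1 (fractalkine) had 13.99 to 26.8 CPM in the 5 libraries and 5.48 to 8.99 CPM in the other 10. It averaged 14.3 ± 6.50 CPM with metformin, 12.2 ± 9.501 CPM with resveratrol, 6.74 ± 1.61 CPM on HFD and 11.9 ± 9.90 CPM on the normal diet, and its adjusted p was 0.179 for metformin against HFD. Ccl28 and Cx3cl1 were the 2 of 41 described members whose values did not overlap between these libraries, where 8.12% of 18640 genes at this level lay wholly higher and 0.74% wholly lower. Whether the ciliated cells or others near them carried these transcripts was not tested.

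**Figure D3:**
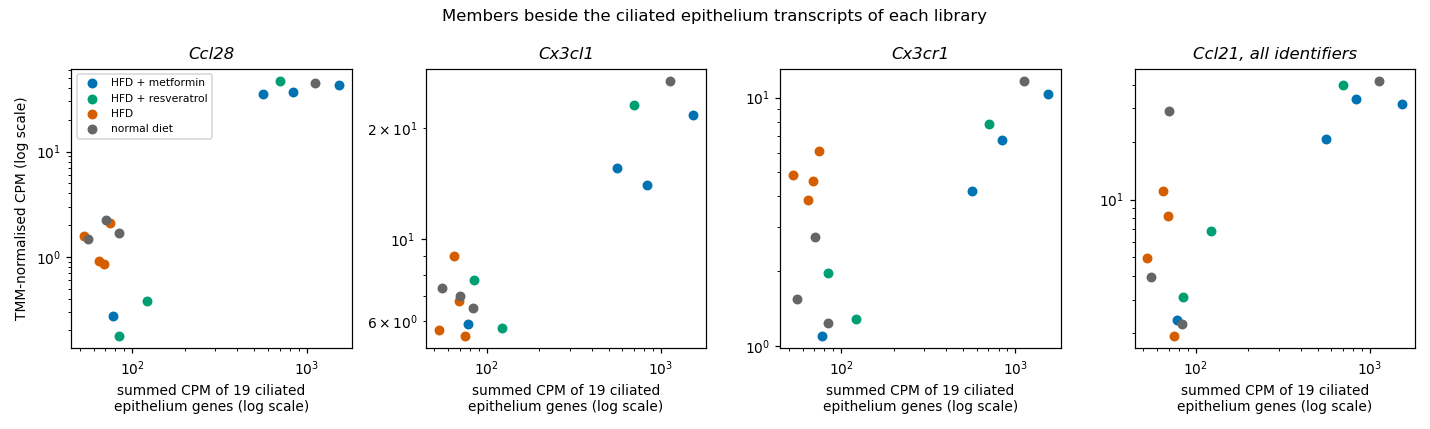
Level of Ccl28, Cx3cl1, Cx3cr1 and summed Ccl21 (TMM-normalised CPM, log axis) against the summed CPM of 19 ciliated epithelium genes (log axis), a point per library (n = 15), coloured by group. For Ccl28 the 5 libraries with 559.8 CPM or more of ciliated transcripts sit at 34.8 to 46.4 CPM, apart from the other 10 at up to 2.25 CPM.

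Among the CXC ligands, 2 fell on HFD and none rose. Cxcl13 (chromosome 5, 95956951 to 95961068), which attracts B cells through Cxcr5, had 2.47, 0.921, 1.17 and 0.710 CPM with metformin, 2.98, 1.51 and 0.510 CPM with resveratrol, 0.304, 0, 0.209 and 0.603 CPM on HFD and 1.46, 3.54, 1.45 and 2.70 CPM on the normal diet. The HFD libraries lay below all normal diet libraries and overlapped the resveratrol libraries. Cxcl13 fell on HFD to 0.279 ± 0.251 CPM, against 2.29 ± 1.02 CPM on the normal diet (log2 fold change -3.02, SE 0.81, adjusted p = 0.0171), and had adjusted p = 0.0712 for metformin and 0.0947 for resveratrol against HFD. Its receptor Cxcr5 averaged 1.18 ± 0.455 CPM with metformin, 0.564 ± 0.485 CPM with resveratrol, 0.235 ± 0.180 CPM on HFD and 0.629 ± 0.317 CPM on the normal diet, and did not pass (adjusted p = 0.215 for HFD against normal diet, 0.0658 for metformin against HFD). B cell markers, 8 genes, summed to 94.0 to 331.1 CPM with metformin, 66.9 to 335.1 with resveratrol, 187.6 to 266.5 on HFD and 36.9 to 77.2 on the normal diet. Of these 8, only 1 passed as higher on HFD than on the normal diet, and the median log2 fold change was 0.32. Against HFD, 1 was higher with metformin and 0 with resveratrol. Cxcl11 (chromosome 5, 92359544 to 92365485), an interferon-inducible ligand of Cxcr3, had 0.412, 0.230, 0.608 and 0.437 CPM with metformin, 0.716, 0.344 and 0.638 CPM with resveratrol, 0.203, 0.256, 0.209 and 0.0603 CPM on HFD and 0.923, 0.911, 0.268 and 0.470 CPM on the normal diet. It fell on HFD to 0.182 ± 0.0846 CPM, against 0.643 ± 0.327 CPM on the normal diet (log2 fold change -1.76, SE 0.51, adjusted p = 0.0253), with no overlap, at levels where 3 counts make 0.146 to 0.225 CPM.

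The other 2 interferon-inducible Cxcr3 ligands did not follow Cxcl11. Cxcl9 (chromosome 5, 92321347 to 92328079) had 37.03, 19.5, 29.4 and 31.1 CPM with metformin, 33.5, 33.6 and 43.7 CPM with resveratrol, 28.4, 25.9, 27.7 and 58.5 CPM on HFD and 35.5, 23.1, 29.5 and 25.4 CPM on the normal diet. HFD unmatched was the highest of all and the other libraries overlapped (log2 fold change 0.31, SE 0.26, adjusted p = 0.417 for HFD against normal diet). Cxcl10, whose window is printed above, averaged 0.879 ± 0.406 CPM with metformin, 2.06 ± 0.527 CPM with resveratrol, 1.72 ± 0.598 CPM on HFD and 1.63 ± 0.650 CPM on the normal diet (adjusted p = 0.906 for HFD against normal diet). Cxcl12 (chromosome 6, 117168535 to 117181367) had 386, 191, 254 and 268 CPM with metformin, 357, 250.3 and 435 CPM with resveratrol, 217, 222, 156 and 339 CPM on HFD and 378, 343, 299 and 298 CPM on the normal diet. HFD 1 to 3 lay below all normal diet libraries and HFD unmatched among them (log2 fold change -0.50, SE 0.25, adjusted p = 0.164). The neutrophil attractant Cxcl1 averaged 1.91 ± 0.877 CPM with metformin, 2.36 ± 0.330 CPM with resveratrol, 2.29 ± 0.494 CPM on HFD and 2.00 ± 0.626 CPM on the normal diet. Cxcl2, of the same kind, averaged 0.502 ± 0.124 CPM with metformin, 0.369 ± 0.162 CPM with resveratrol, 1.52 ± 0.700 CPM on HFD and 0.615 ± 0.336 CPM on the normal diet, with adjusted p = 0.0847 for HFD against normal diet, 0.055 for metformin and 0.0665 for resveratrol against HFD. Neutrophil markers (6 of 8 in the table) summed to 4.98 to 9.56 CPM with metformin, 4.32 to 6.92 with resveratrol, 7.69 to 24.9 on HFD and 4 to 10.7 on the normal diet. Only 2 of them could be tested, and 1 was higher on HFD than on the normal diet. Cxcl14, a ligand made by fibroblasts and epithelia, averaged 3.73 ± 1.41 CPM with metformin, 3.02 ± 1.29 CPM with resveratrol, 5.82 ± 2.62 CPM on HFD and 3.38 ± 2.33 CPM on the normal diet. It passed no test in the main fit and was called higher on HFD than on the normal diet with the ciliated covariate. Cxcl16, a membrane-bound ligand of Cxcr6, averaged 14.4 ± 1.43 CPM with metformin, 11.8 ± 6.37 CPM with resveratrol, 18.2 ± 4.75 CPM on HFD and 14.02 ± 3.98 CPM on the normal diet.

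The receptors Ccr2 and Cxcr4 passed a test. Ccr2 (chromosome 9, 124101950 to 124113557), the monocyte receptor of Ccl2 and Ccl7, had 56.3, 30.1, 47.9 and 53.5 CPM with metformin, 41.4, 41 and 49.3 CPM with resveratrol, 107, 101, 136 and 48.9 CPM on HFD and 36.4, 32.2, 70.1 and 56.2 CPM on the normal diet. HFD 1 to 3 were the highest and HFD unmatched lay within the other groups. Ccr2 rose on HFD to 98.5 ± 36.5 CPM, against 48.7 ± 17.7 CPM on the normal diet (log2 fold change 1.01, SE 0.31, adjusted p = 0.0313), fell with metformin to 47.0 ± 11.8 CPM (log2 fold change -1.06, SE 0.31, adjusted p = 0.0415) and had 43.9 ± 4.66 CPM with resveratrol (adjusted p = 0.0693). Cxcr4 (chromosome 1, 128588199 to 128592293), the receptor of Cxcl12, had 16.1, 8.92, 8.46 and 13.2 CPM with metformin, 14.4, 13.96 and 12.8 CPM with resveratrol, 31.4, 23.6, 26.5 and 17.4 CPM on HFD and 11.4, 12.2, 29.96 and 18.4 CPM on the normal diet. Normal diet 3 and 4 lay above HFD unmatched, so these groups overlapped, while all metformin and resveratrol libraries lay below HFD. Cxcr4 passed for metformin against HFD, at 11.7 ± 3.64 against 24.7 ± 5.82 CPM (log2 fold change -1.08, SE 0.30, adjusted p = 0.038), with adjusted p = 0.157 for resveratrol and 0.284 for HFD against normal diet.

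The receptors that follow passed no test in the main fit. With the ciliated covariate, Cx3cr1 was called higher on HFD than on the normal diet and lower with resveratrol than on HFD. Ccr1, which binds Ccl6 and Ccl9 in mice, averaged 8.55 ± 2.23 CPM with metformin, 7.94 ± 2.01 CPM with resveratrol, 13.6 ± 4.23 CPM on HFD and 8.06 ± 2.33 CPM on the normal diet, with adjusted p = 0.0784 for HFD against normal diet. Ccr3, the eotaxin receptor of eosinophils, averaged 0.395 ± 0.545 CPM with metformin, 1.09 ± 1.06 CPM with resveratrol, 1.61 ± 0.418 CPM on HFD and 2.32 ± 2.10 CPM on the normal diet. Ccr7, the receptor of Ccl19 and Ccl21 on dendritic cells and naive T cells, averaged 1.56 ± 0.538 CPM with metformin, 1.66 ± 0.793 CPM with resveratrol, 2.58 ± 0.413 CPM on HFD and 2.64 ± 1.84 CPM on the normal diet. Ccr6 had too few counts for the test and averaged 0.620 ± 0.377 CPM with metformin, 0.241 ± 0.216 CPM with resveratrol, 0.195 ± 0.109 CPM on HFD and 0.0923 ± 0.127 CPM on the normal diet. Cx3cr1, the fractalkine receptor of monocytes and macrophages, averaged 5.59 ± 3.903 CPM with metformin, 3.70 ± 3.61 CPM with resveratrol, 4.86 ± 0.928 CPM on HFD and 4.29 ± 4.94 CPM on the normal diet. Xcr1, a receptor of cross-presenting dendritic cells, averaged 1.01 ± 0.513 CPM with metformin, 0.901 ± 0.367 CPM with resveratrol, 1.54 ± 0.689 CPM on HFD and 1.03 ± 0.420 CPM on the normal diet. The T cell receptors of this family, Cxcr3 and Cxcr6, averaged 1.93 ± 0.561 CPM with metformin, 2.59 ± 0.431 CPM with resveratrol, 2.83 ± 0.901 CPM on HFD and 2.73 ± 0.515 CPM on the normal diet for Cxcr3, and 3.14 ± 0.740 CPM with metformin, 3.19 ± 1.04 CPM with resveratrol, 2.51 ± 0.747 CPM on HFD and 2.69 ± 0.331 CPM on the normal diet for Cxcr6. T and NK cell markers, 15 genes, summed to 16.8 to 34.6 CPM with metformin, 18.3 to 27.5 with resveratrol, 45.2 to 114.7 on HFD and 21.6 to 44.7 on the normal diet. Of these 15, only 2 passed as higher on HFD than on the normal diet. The log2 fold change was positive for 9, with a median of 0.177. Against HFD, 2 were lower with metformin and 2 with resveratrol.

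**Figure D4:**
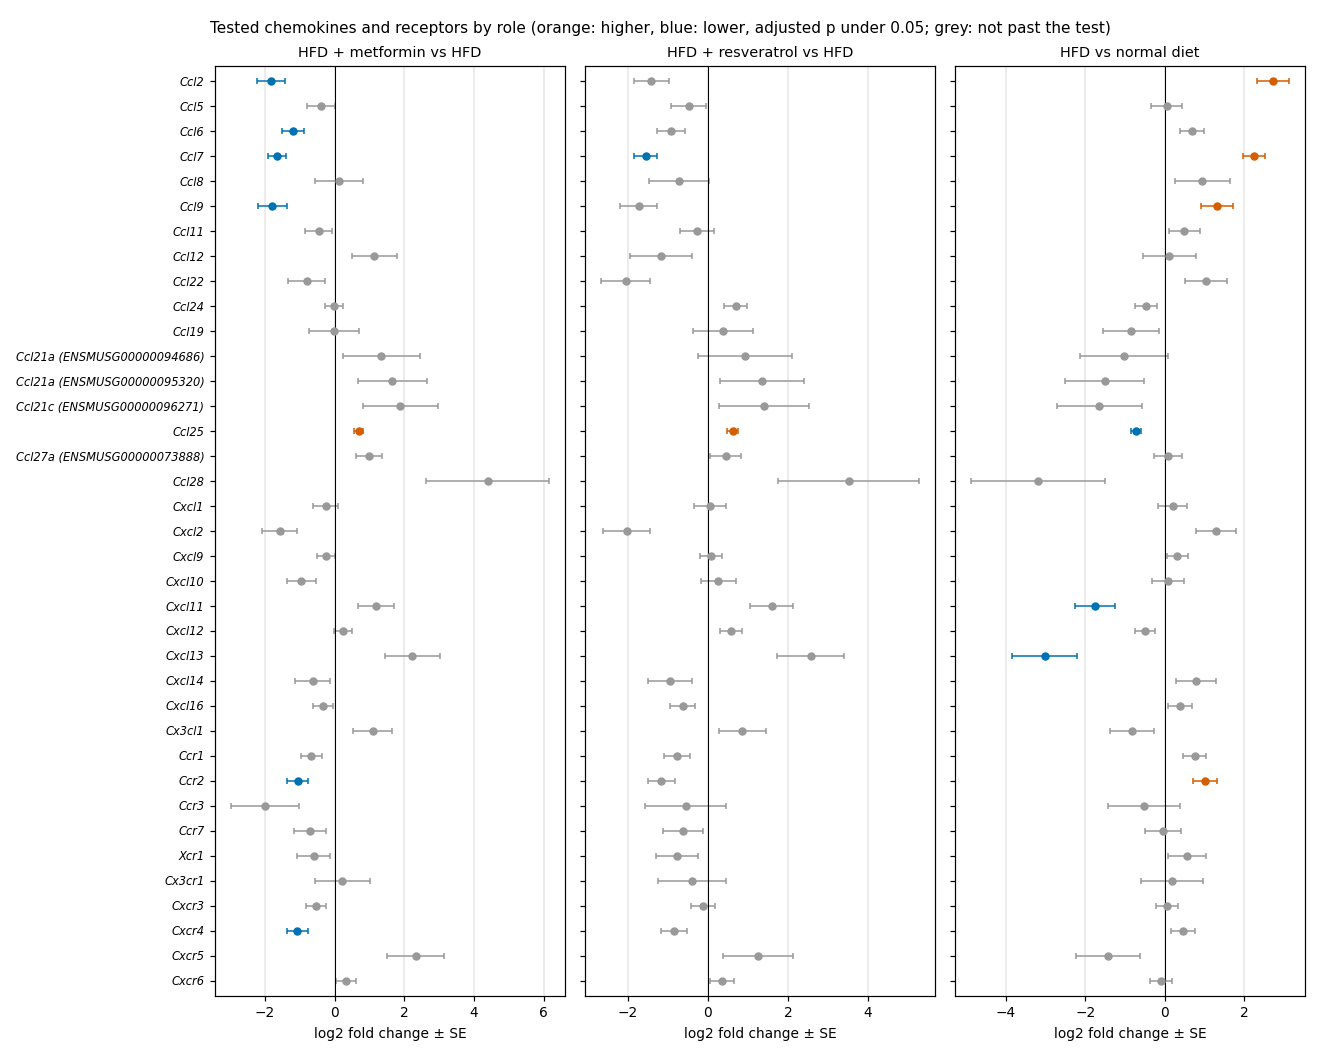
Log2 fold change (points) with its SE (whiskers) of 37 tested described members in 3 comparisons, HFD with metformin against HFD, HFD with resveratrol against HFD, and HFD against normal diet, genes grouped by role from inflammatory CC ligands at the top to CXC, CX3C and XC receptors at the bottom. Coloured points passed the test: 7 with metformin, 2 with resveratrol and 7 for HFD. The HFD libraries enter all 3 panels.

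The first comparison set HFD against the normal diet. Ccl2 and Ccl7 rose most, 6.58-fold and 4.75-fold, Ccl9 and Ccr2 also rose, and Cxcl13, Cxcl11 and Ccl25 fell. Of 38 tested described members, 5 were higher (13.2%), against 13.8% of all 17535 genes, and 3 were lower (7.89%), against 9.34% of all genes. The shares called were thus close to those of all genes. The median log2 fold change of the 38 was 0.0962, and that of all genes was -0.0436. Of 10 tested inflammatory CC ligands, 3 were higher and 0 lower, with a median of 0.811. Filtering by level keeps a member that is high in a single group, so these counts describe the members and test nothing about the family. Ccl2 and Ccl7 stayed past the threshold when any 1 library was left out (highest adjusted p 0.00416 and 0.00187). Ccl9 and Ccr2 did not pass without any 1 of normal diet 1 or 2 or HFD 1, 2 or 3 (highest adjusted p 0.0962 and 0.0991). Neither passed with all 16 libraries in the fit (0.164 and 0.0986) or with the 2 groups alone, and Ccl9 also not without normal diet 4. With any 1 of these libraries left out, 1663 to 1983 of all genes were higher, against 2412 in the main fit. With all 16 libraries 921 were higher, and with the 2 groups alone 2526. Ccl25 kept the call without any 1 library (highest adjusted p 0.00833), Cxcl13 lost it without HFD 3 (0.0566), and Cxcl11 lost it without normal diet 1 or 2 or HFD 1 or 3 (highest 0.0739). Cxcl11 also lost it with all 16 libraries, with the 2 groups alone and without both unmatched libraries. The higher count was 7 without normal diet 3 (Ccl22 and Cxcr4 added) and 8 without HFD unmatched (Ccl6, Ccr1 and Cxcl2 added). Of all genes, 2150 and 2636 were higher in these fits.

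Metformin on HFD was compared with HFD alone. Ccl7, Ccl2, Ccl9, Ccl6, Cxcr4 and Ccr2 fell, by between 1.06 and 1.83 on the log2 scale, and Ccl25 rose. Of 38 tested described members, 7 were lower (18.4%), against 7.84% of all genes, and 1 was higher (2.63%), against 6.09% of all genes. The median log2 fold change was -0.295 for the 38 and 0.0366 for all genes, and 4 of 10 inflammatory CC ligands were lower. These calls rest on the library set: with resveratrol 4 added to the fit, a library of another group, the counts were 0 lower and 0 higher. With a covariate for ciliated transcripts they were also 0 and 0, at log2 fold changes of -1.29 for Ccl2, -1.58 for Ccl7 and 0.63 for Ccl25. The calls over all genes fell as well, from 2442 to 179 with resveratrol 4 added and to 11 with the covariate. The loss was thus not particular to the members. With single libraries left out, Ccl7 and Ccl25 kept the call (highest adjusted p 0.0424 each), and Ccl2 lost it without HFD 3 (0.0563). Without HFD 1, 2 or 3 or metformin 2, the calls of Ccl6, Ccl9, Cxcr4 and Ccr2 were lost. The lower count was 2 without HFD 3, 3 without HFD 1, HFD 2 or metformin 2, and 4 without metformin 4. Of all genes, 356 were lower without HFD 3, 403 without HFD 1 and 447 without HFD 2, against 1374 in the main fit. This number was 762 without metformin 2 and 1101 without metformin 4. Cxcr4 and Ccr2 also lost the call without metformin unmatched or resveratrol 1, and Ccr2 without resveratrol 3. Metformin 1, the single metformin library low in ciliated transcripts, had 5.36 CPM of Ccl2, 4.19 CPM of Ccl7 and 16.1 CPM of Cxcr4, each under all 4 HFD libraries. Its Ccl9 (98.9 CPM), Ccl6 (116.4 CPM) and Ccr2 (56.3 CPM) lay above HFD unmatched (89.8, 109.6 and 48.9 CPM) and below HFD 1 to 3. Markers of epididymis principal cells (11 of 13 in the table) also differed: they summed to 23.3 to 65 CPM in the metformin libraries, with 24.2 CPM in metformin 1, against 0.292 to 0.529 CPM on HFD, with 4 of 5 tested genes higher. Their part in the metformin values was not tested.

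Resveratrol on HFD was compared with HFD alone. Ccl7 fell and Ccl25 rose. Of 38 tested described members, 2 were lower (5.26%), against 3.09% of all genes, and 1 was higher (2.63%), against 1.09% of all genes. The median was -0.332 for the 38 and 0.036 for all genes. Both drug comparisons and the diet comparison share the HFD libraries, so their directions are not independent of each other. All 3 calls were lost without any 1 of HFD 1, 2 or 3 or resveratrol 1, 2 or 3 (highest adjusted p 0.135 for each). In each of these fits 1 or 2 of all genes were called, against 732 in the main fit. Without HFD unmatched 9 members were lower and 2 higher, beside 1306 and 760 of all genes. Without normal diet 3 or without metformin 2, 4 members were lower, beside 594 and 957 of all genes. DESeq2 called 8 members lower and 2 higher, beside 1427 and 725 of all genes.

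Metformin and resveratrol were compared directly. No member passed the edgeR test in either direction, against 0.0114% of all genes higher and 0% lower. Of 39 tested members, 3 had an unadjusted p under 0.05 in that test (Ccl12, Ccl24 and Cxcl10), beside 1228 of all 17535 genes. These shares were close to each other. DESeq2 called 0 members and 30 of all genes. The log2 fold change of metformin over resveratrol was -0.41 for Ccl2 (SE 0.42), -0.10 for Ccl7 (SE 0.28) and 0.07 for Ccl25 (SE 0.14). Ccl12 had a log2 fold change of 2.32 (SE 0.78, adjusted p = 0.709). It had 0.481, 1.15, 1.17 and 1.15 CPM in the metformin libraries, against 0.119, 0.275 and 0.191 CPM with resveratrol.

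Other genes of the chemokine system were counted from a list of atypical receptors, platelet chemokines, kinases, arrestins, G proteins and signalling partners. Of 33 listed, 31 were in the table and tested. On HFD 15 were higher and 0 lower against normal diet, or 48.4%, beside the 13.8% of all genes higher. With metformin 14 were lower and 0 higher, or 45.2%, and with resveratrol 9 were lower and 0 higher, beside 7.84% and 3.09% of all genes lower. With all 16 libraries these counts were 5, 3 and 6, and with the ciliated covariate 16, 0 and 5. All genes called in the same directions numbered 921, 147 and 308 with all 16 libraries, and 2620, 2 and 559 with the covariate. Without any 1 of HFD 1 to 3 the metformin count was 6 and the resveratrol count 0. The metformin count was 8 without metformin 2. The resveratrol count was also 0 without any 1 resveratrol library, 5 without normal diet 4 or metformin unmatched, and 6 without metformin 4. Rgs1, which dampens G protein signalling in leukocytes, had 2.72 ± 1.12 CPM with metformin, 2.22 ± 0.486 with resveratrol, 24.3 ± 14.1 on HFD and 4.98 ± 5.74 on the normal diet (log2 fold change 2.28, SE 0.74, adjusted p = 0.0404 for HFD against normal diet). Pik3r5, the regulatory subunit of the G protein-activated PI3-kinase gamma, had 22.6 ± 7.88, 23.1 ± 1.89, 87.8 ± 35.2 and 29.8 ± 16.2 CPM in the same 4 groups (log2 1.56, adjusted p = 0.0134).

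Dock2, a Rac activator needed for leukocyte migration, had 74.5 ± 18.3, 82.3 ± 7.87, 238 ± 87.4 and 85.0 ± 32.6 CPM with metformin, with resveratrol, on HFD and on the normal diet (log2 1.49, adjusted p = 0.00577 for HFD against normal diet). Was, Vav1, Rac2 and Lyn, an actin regulator, a Rac activator, the leukocyte Rac protein and a Src-family kinase, also rose on HFD, by 1.11, 1.07, 0.95 and 1.01 on the log2 scale. These 7 genes fell with both drugs, with log2 fold changes of -0.78 to -3.15 for metformin and -0.73 to -3.45 for resveratrol. Most of these are known from leukocytes in general, and most of the macrophage markers given above moved with them, a part that was not tested. The atypical scavenger receptors Ackr1, Ackr2, Ackr3 and Ackr4 passed no test (adjusted p = 0.494, 0.997, 0.51 and 0.335 for HFD against normal diet).

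**Figure D5:**
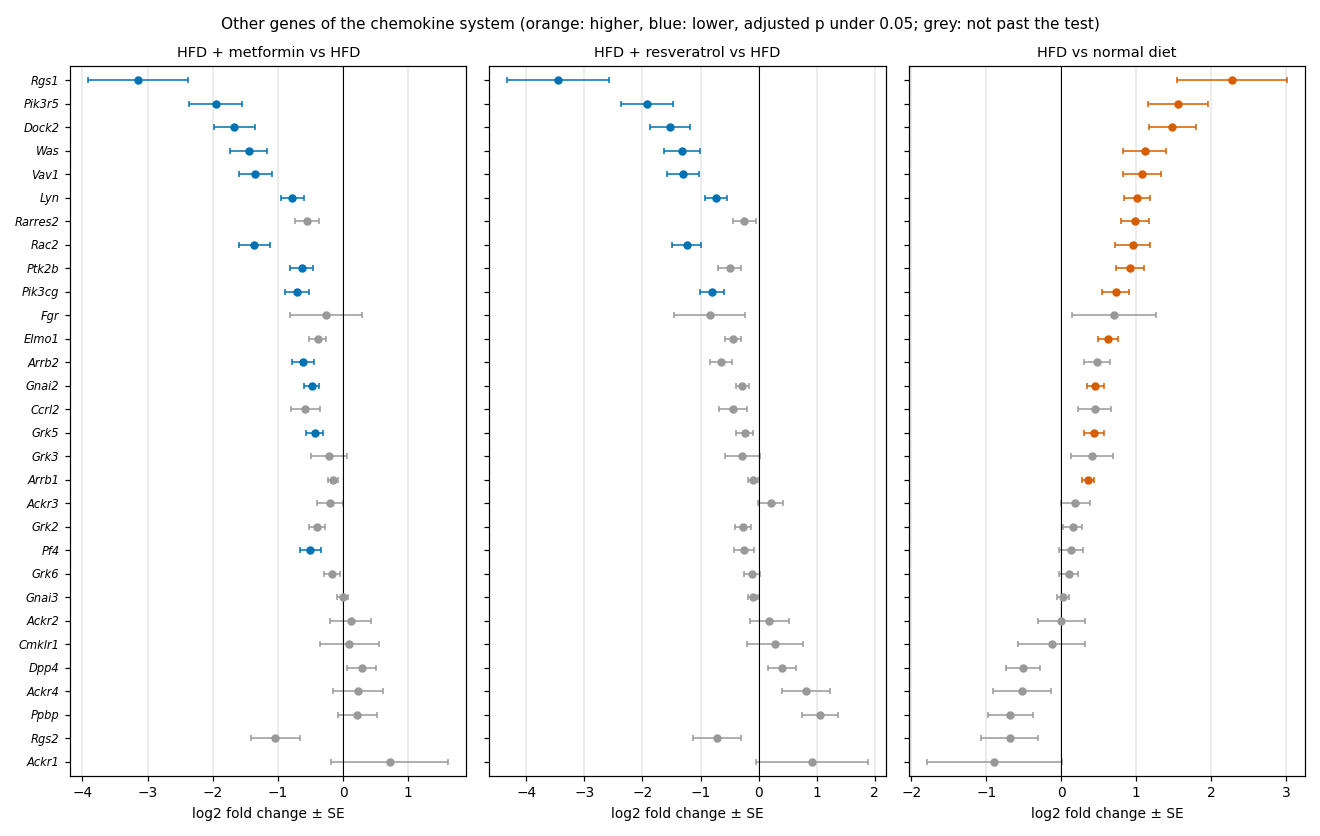
Log2 fold change (points) with its SE (whiskers) of 30 other genes of the chemokine system in the same 3 comparisons, ordered by their value for HFD against normal diet. Coloured points passed the test: 13 lower with metformin, 8 lower with resveratrol and 14 higher on HFD. The atypical receptors Ackr1 to Ackr4 lie in the lower part and are grey in all 3 panels.

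The remaining 21 members stayed under 0.5 CPM in every group. Just inside the level were Ccl27a on a scaffold (0.673 CPM in its highest group), Cxcl11 (0.643) and Ccr6 (0.620), and just outside were Ccr9 (0.496), Ccr10 (0.435) and Ccl3 (0.395). The neutrophil receptors Cxcr1 and Cxcr2 had highest group means of 0.0515 and 0.223 CPM, and the neutrophil attractants Cxcl3 and Cxcl5 of 0.0627 and 0.0273 CPM. At this depth 8 of the 62 members had at most 3 counts in each of the 15 libraries. These 8 were thus at the limit of detection, and absence was not shown for any low member. Ccl4 had 0.367 CPM on HFD and 0.0281 CPM on the normal diet. It was not tested in the main fit, and was called higher on HFD without the filter and by DESeq2.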

How the data were processed

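Epididymal fat RNA of 16 samples was sequenced (TruSeq libraries on a NovaSeq, per the labels' protocols). The deposited mRNA table holds raw whole-number counts per transcript made by the authors, with FPKM beside them, per the file headers. Per the submitters' processing notes, fastp and HISAT2 were used with GRCm38. The counting tool, with its annotation and strand setting, was not given in the sources used here. Overlapping or near-identical genes could therefore share reads. The header of the table lacks 1 name, and 5 records broken over 2 lines were rejoined. The deposited FPKM served to check the columns alone: in 14 libraries the total they imply differed by at most 8.38e-05% from the mRNA total, while the lncRNA table implied a total within 0.0418% of its own library's counts and at least 0.492% from any other's. A further 4 columns of per-sample values, in the 2 unmatched codes, were not used. The 91879 transcripts were collapsed by gene identifier to 27150 genes. Library totals were 13350585 to 20531032, and 3 counts correspond to 0.146 to 0.225 CPM, a limit that covers counting error only. Within groups, library pairs differed beyond counting error (chi-square divided by its degrees of freedom 12.6 to 506), so none was merged.

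A robust quasi-likelihood model (edgeR 4.0.16, R 4.3.3) with group as factor was fitted to 15 libraries after filterByExpr and TMM normalisation, leaving 17535 genes and 38 of the 41 described members (39 of all 62). Tests were two-sided with Benjamini-Hochberg adjustment over all genes. The step was tested on simulated counts. The SE of a log2 fold change was derived from the test, as its absolute value divided by the square root of the F statistic. Levels per kb divide CPM by the mean transcript length. Alternatives were no filter, DESeq2 1.42.0, its type of size factors in edgeR, all 16 libraries, 2 groups alone, a covariate of summed ciliated transcripts (log scale), leaving out libraries above 400 CPM of them, leaving out both unmatched libraries, and leaving out each library. All described members are named with group values. Members that passed a test, and the 8 with the highest mean, are given per library. Members, lists and tests were chosen with earlier results of these data known. A few genes enter the fits and counts but are not reported here by name.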

Additional observations from a re-analysis of the deposited data

Results flagged for a closer look

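Of 123 groups of 4 libraries (41 members in 3 groups), 11 held a library far from the other 3. For independent, normally distributed values about 1 in 20, or 6.15, would lie at this distance. The members share libraries and some have few counts, so 6.15 is not an expectation for these data. Normal diet 2, rich in ciliated transcripts, was high for 5 members within its group. It had 44.3 CPM of Ccl28 (other libraries 1.46 to 2.25), 26.8 CPM of Cx3cl1 (6.51 to 7.38), 11.6 CPM of Cx3cr1 (1.23 to 2.73), 6.83 CPM of Cxcl14 (1.98 to 2.69) and 1.01 CPM of Ccl12 (0.117 to 0.268). Metformin 2 had 14.04 CPM of the main Ccl27a identifier (4.05 to 5.01 in the others) and 2.36 CPM of Ccl27b (0.137 to 0.492). This library had the most ciliated transcripts and 2059 CPM of spermatogenic markers. The other 4 ciliated-rich libraries had 3.59 to 5.43 CPM of that Ccl27a identifier, and the other 14 libraries of the tests had 0.493 to 41.4 CPM of spermatogenic markers. Metformin 1, low in ciliated transcripts, had 0.481 CPM of Ccl12, against 1.15 to 1.17 CPM in the other metformin libraries. Normal diet 1 had 1.85 CPM of Ccl7 (2.93 to 3.05 in the others), and normal diet 3 had 2.95 CPM of Ccl22 (0.763 to 1.06). HFD unmatched had 58.5 CPM of Cxcl9, against 25.9 to 28.4 CPM in HFD 1 to 3.

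Resveratrol 4, which entered no comparison, held 3 members at higher plain CPM than any of the other 15 libraries. These were Ccl25 with 41.9 CPM (12.8 to 33.9 in the others), Cxcl5, which draws neutrophils to epithelia, with 1.51 CPM (0 to 0.113) and Ccl17, a ligand of Ccr4, with 2.02 CPM (0 to 0.832). Its Crisp1 level was given above, and its part in these values was not tested.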

How the results depend on the processing

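No called member changed direction under any alternative. Of the calls of single members under the alternatives, 158 kept and 25 lost the threshold for HFD against normal diet, 131 and 53 for metformin against HFD, and 45 and 24 for resveratrol against HFD. The count of 5 members higher on HFD was 3 with all 16 libraries, 3 with the 2 groups alone, 9 with the ciliated covariate and 8 without the unmatched libraries, and 3 to 8 with single libraries left out (8 without HFD unmatched). The covariate added Ccl8, Cxcl14, Cx3cr1 and Cxcl2, beside 2620 of all genes higher. Without the ciliated-rich libraries Ccl9, Ccr2 and Cxcl11 lost the call for the diet, while Ccl8, Cxcl14 and Cx3cr1 gained one as higher on HFD. The count of 3 lower was 1 to 4 with single libraries left out. For metformin, the count of 7 lower was 0 with all 16 libraries, with the ciliated covariate and without the ciliated-rich libraries, and 2 to 9 with single libraries left out. The count of 1 higher was 6 with DESeq2, 0 in those same 3 settings, 2 without the unmatched libraries and 1 to 2 with single libraries left out. For resveratrol, the count of 2 lower was 8 with DESeq2, 0 with the 2 groups alone, 4 with the covariate, 0 without the ciliated-rich libraries, 8 without the unmatched libraries, and 0 to 9 with single libraries left out. The count of 1 higher was 2 with DESeq2, 0 with the 2 groups alone, 0 without the ciliated-rich libraries, 2 without the unmatched libraries and 0 to 2 with single libraries left out. Metformin against resveratrol gave 0 members in each setting. Over all genes, DESeq2 called 4237 for metformin against HFD, where edgeR called 2442, 2152 against 732 for resveratrol and 30 against 2 between the drugs. With all 16 libraries, edgeR called 1531 of all genes for HFD against normal diet, 179 for metformin and 395 for resveratrol against HFD. These were 4050, 2442 and 732 in the main fit, and 4531, 11 and 976 with the ciliated covariate. With the 2 groups alone, 1 gene of all was called for resveratrol against HFD. The cause of these changes was not tested. Without the ciliated-rich libraries only metformin 1 is left of its group and is assumed to vary like the others, and the covariate is partly confounded with metformin. No paired analysis was possible because the replicate numbers follow sample order and pair no libraries. Depth limits members near 0.5 CPM.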
